A study of Homo sapiens with 8 samples.

Results

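The exons described here were almost always spliced into the mRNA of control U2OS cells, and the question was which of them began to be skipped when CHERP was depleted. A cassette exon counted as near-constitutive when its inclusion level in control whole cells, averaged over 2 libraries, was above 0.95, so the members were selected on measured control values. The inclusion level is the share of transcripts that keep the exon, taken as the inclusion reads per length over the inclusion and skipping reads per length. The exon had to be 51 to 300 nt long, with flanking introns neither both of 500 nt or less nor both of 10000 nt or more, and with a mean of 50 or more reads per whole-cell library, and only the event with the most reads was kept for each exon. Of the 63977 skipped-exon events (SE) in the whole-cell table, representing 48505 distinct exons, 38160 exons met the length limits, 25752 of these met the read limit, and 19769 exons of 6155 genes were near-constitutive. The other 5981 had a control level of 0.95 or less. Among the members, 1765 overlapped another member, as when a splice site varies by a few bases, and such versions share reads.

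U2OS is an osteosarcoma cell line. The cells received 20 nM EGFP siRNA, against a gene they do not carry, or 20 nM CHERP siRNA#2 for 48 hours, and poly(A)+ RNA of the whole cell or of its cytoplasmic fraction was sequenced in 2 libraries per siRNA and fraction, 8 in all. All of the depletion data came from 1 siRNA sequence, and the cells otherwise shared the same line and culture. The methods call the libraries of a group biological replicates, and whether whole-cell and cytoplasmic RNA came from the same dishes is not given in the sources used here. The reads summed over all splicing events came to between 29409956 and 35664568 per whole-cell library and to between 5370756 and 6580099 per cytoplasmic library, where a read on several events is counted at each. Reads on the events of CHERP itself numbered 103 and 77 in the whole-cell control libraries against 3 and 10 after depletion, and 31 and 21 against 3 and 4 in the cytoplasm. Of the 10 mesenchymal and osteosarcoma markers, 7 had events, with 124488 to 136578 reads in whole-cell control libraries and 155103 to 177034 after depletion. The blood and endothelial markers had no event, the 2 neural markers with events held 56 to 65 control reads and 164 to 198 after depletion, and the 2 epithelial markers with events held 15512 to 19316 and 12320 to 12734. Their part in the results was not tested.

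An exon is kept when the U1 snRNP recognizes its 5′ splice site, at its downstream end, and U2AF and the U2 snRNP recognize the polypyrimidine tract, AG and branch point of its 3′ splice site, upstream of it. SR proteins bound within the exon help both. CHERP carries arginine and serine repeats and binds U2 snRNP proteins. Skipping an exon whose length is a multiple of 3 keeps the reading frame, whereas other lengths shift it and often bring a premature stop codon, which exposes the mRNA to nonsense-mediated decay when the stop lies well before the last exon junction.

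Of the near-constitutive exons, 13 were newly skipped in CHERP-depleted whole cells, by the definition given with their values further on. The sequences of 5 are shown here, since they include the exon with the largest loss in the cytoplasm (BRD8), a long and a very short in-frame exon (GLYR1 and SRSF10) and 2 exons whose skipping shifts the frame (CLK1 and RPL7L1). Each runs from 20 intronic bases before the exon to 6 after it, read on the gene's strand from GRCh37, the build called hg19 in the methods, and the capitals mark the AG that ends the intron before the exon and the GT that starts the intron after it. The stretches are chr5:137502201-137502436 on the minus strand for BRD8, chr16:4881974-4882242 on the minus strand for GLYR1, chr1:24298057-24298136 on the minus strand for SRSF10, chr2:201722435-201722627 on the minus strand for CLK1 and chr6:42848579-42848710 on the plus strand for RPL7L1.
BRD8: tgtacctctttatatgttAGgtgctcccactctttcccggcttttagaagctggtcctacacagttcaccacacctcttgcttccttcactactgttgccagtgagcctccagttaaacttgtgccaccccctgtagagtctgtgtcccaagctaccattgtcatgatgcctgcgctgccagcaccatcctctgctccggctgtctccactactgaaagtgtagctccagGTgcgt
GLYR1: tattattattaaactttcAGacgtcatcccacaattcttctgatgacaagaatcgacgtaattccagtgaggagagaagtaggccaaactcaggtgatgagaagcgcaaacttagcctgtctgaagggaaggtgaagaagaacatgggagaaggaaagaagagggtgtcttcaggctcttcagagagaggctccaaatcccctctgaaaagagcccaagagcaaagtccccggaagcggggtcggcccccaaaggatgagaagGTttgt
SRSF10: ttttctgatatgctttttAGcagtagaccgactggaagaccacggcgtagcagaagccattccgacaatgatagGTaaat
CLK1: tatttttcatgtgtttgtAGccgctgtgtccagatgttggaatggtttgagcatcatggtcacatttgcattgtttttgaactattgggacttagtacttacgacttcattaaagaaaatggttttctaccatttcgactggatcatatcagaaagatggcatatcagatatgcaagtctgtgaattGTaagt
RPL7L1: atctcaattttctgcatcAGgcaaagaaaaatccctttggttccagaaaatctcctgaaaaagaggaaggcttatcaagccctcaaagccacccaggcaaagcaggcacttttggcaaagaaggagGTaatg

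In control cells the members had a median inclusion level of 0.995, and after depletion the median was also 0.995. Their median read number was 224 per library. For most of them CHERP depletion made little difference: 19219 members, 97.2%, stayed within 0.05 of their control level, and the median difference, CHERP minus EGFP, was -0.000252. Summed over the members, skipping reads made up 2.71 and 2.73 of every 1000 reads in the control libraries and 3.02 and 3.06 after depletion. Versions of an exon that share skipping reads were counted more than once in these sums. No such sum is given for the mirror set described next. The share of members at or below 0.95 was 3.34% and 3.36% in the single control libraries and 5.94% and 6.18% in the single CHERP siRNA libraries. Because the members were chosen on control values, a mirror set was drawn by the same limits from the CHERP siRNA libraries. Of the 19746 exons above 0.95 after depletion, 2.90% and 3.10% were at or below 0.95 in the CHERP siRNA libraries and 5.55% and 6.50% in the control libraries. The group used for the choice had the lower shares in both sets.

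The table lists an exon only where a skipping read was found. No whole-cell event lacked skipping reads in all libraries, so the 5814 members without a skipping read in either control library are listed because 1 or more was read after depletion, and they could only be lower there. Likewise 5653 members had none in either CHERP siRNA library. The cutoff of 0.95 itself divides exons of equal level. Just inside it were FAM195B, POLL and RAD50, each at 0.95 in control cells and at 0.991, 1.00 and 1.00 after depletion. Just outside it were CBFA2T2, FAM188A and FOPNL, also at 0.95 in control cells when rounded and at 0.954, 1.00 and 0.932 after depletion.

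In whole cells, 45 members had an FDR under 0.05 and were lower after depletion, and 14 were higher. Over all 63977 events the same threshold was passed by 0.438% in the lower and 0.455% in the higher direction, against 0.228% and 0.0708% of the members. These FDR values come from a quasi-binomial model fitted over the whole table, and since the control libraries also chose the members, the counts are descriptions and nothing is read from them. The 45 exons belonged to 38 genes and to 39 stretches that did not overlap. An exon was called newly skipped when it passed that FDR, both CHERP siRNA libraries lay below both control libraries and its mean level was lower by 0.1 or more. This left 13 exons, a combination that 0.28% of all events met. The 13 were judged by the best-read event of each exon, and 9 were counted where every event of the exon had to be newly skipped. In the mirror set 11 exons met the reverse conditions, above 0.95 after depletion and lower by 0.1 or more in control cells. The 32 other exons called lower differed by 0.00386 to 0.0998 and the 14 called higher by 0.00297 to 0.0435. The 32 had a median of 1740 reads per library, with a range from 267.75 to 42139. The count of 13 was not stable when 1 library was left out, which also leaves a single library in a group. With 1 library left out, the largest difference, in CTD-2314B22.3, ranged from -0.407 to -0.339. The smallest, in CLK1, ranged from -0.117 to -0.0839 and so could miss the 0.1 required. The cause of the unstable count was not tested. All 13 had an unadjusted p under 0.05 by limma on log2 odds, but their adjusted p lay between 0.417 and 0.555, and limma called 0 of them.

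**Figure D1:**
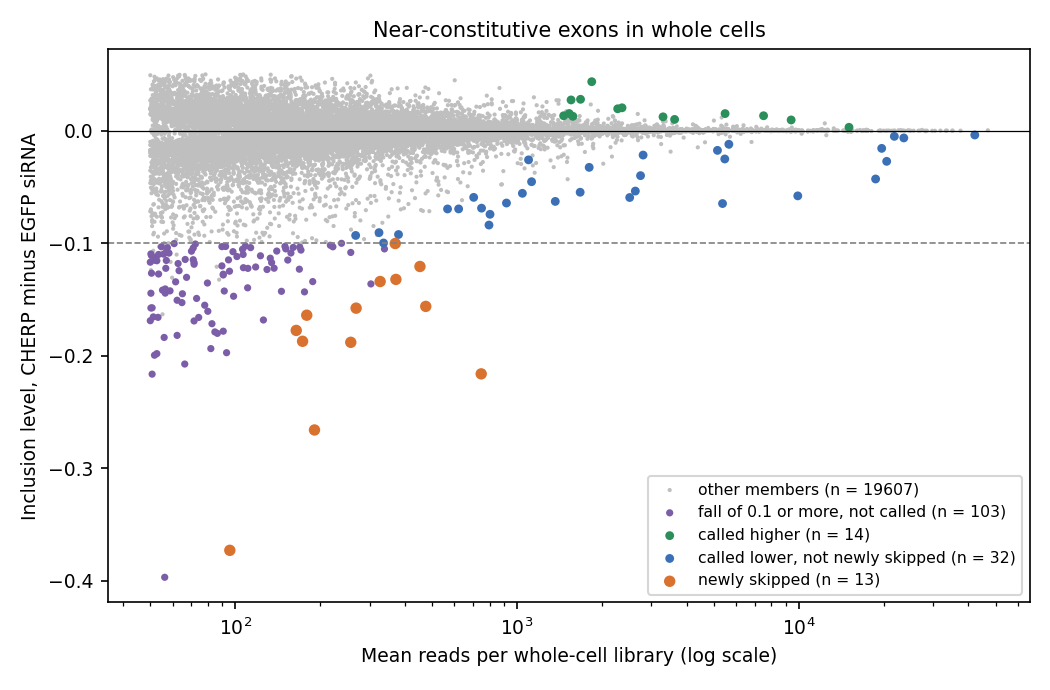
Difference in inclusion level (vertical axis, CHERP minus EGFP siRNA, means of 2 libraries) against mean reads per whole-cell library (log scale) for the 19769 near-constitutive exons, 1 point each. The 13 newly skipped exons lie at 95.8 to 747 reads, the 32 smaller called losses mostly further right, and the 103 uncalled exons below the dashed line at -0.1 mostly at under 200 reads.

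The largest loss among the 13 was in a non-coding transcript, CTD-2314B22.3, with an exon of 111 nt at chr14:19923013-19923123 on the minus strand, which the newer annotation assigns to DUXAP10. Its inclusion levels were 0.933 and 1.00 in control cells and 0.588 and 0.599 after depletion. Only 62 to 145 reads per library lay on it. DUXAP10 belongs to a family of near-identical copies, so its reads could be divided among them and its values are uncertain.

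BRD8 encodes a bromodomain protein of the TIP60 histone acetyltransferase complex. Its exon of 210 nt at chr5:137502207-137502416 on the minus strand is exon 10 of 27 and all coding, and its level was 0.948 and 0.966 in control cells and 0.632 and 0.7495 after depletion. Its skipping reads numbered 5 and 4 and then 26 and 14, and its inclusion reads 224 and 279 and then 110 and 103. GLYR1, a nucleosome-binding partner of a histone demethylase, was the other chromatin gene. Its exon 5 of 16, 243 nt at chr16:4881980-4882222 on the minus strand, was at 0.960 and 0.969 in control cells and at 0.796 and 0.820 after depletion. Both exons can be left out without a shift of frame.

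Splicing regulators supplied another pair. SRSF10, an SR protein, had the shortest of the newly skipped exons, 54 nt at chr1:24298063-24298116 on the minus strand, which is exon 5 of 6. It went from 0.963 and 0.958 to 0.831 and 0.822, with an SD of 0.00326 between the control libraries and of 0.00589 after depletion. CLK1 phosphorylates SR proteins, and its exon 7 of 13, 167 nt at chr2:201722441-201722607 on the minus strand, went from 0.994 and 0.971 to 0.866 and 0.899. Skipping of the CLK1 exon shifts the frame and brings a stop 466 nt before the last junction. The intron after it is also listed as a retained-intron event, whose level was 0.0733 and 0.0873 in control cells and 0.0744 and 0.0919 after depletion (FDR = 0.972 by the same model).

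Kinase and ubiquitin pathway genes followed. PKN2 is a protein kinase, and its exon 9 of 22, 144 nt at chr1:89270074-89270217 on the plus strand, was at 0.976 and 0.966 in control cells and at 0.737 and 0.831 after depletion. GLMN inhibits cullin-RING ubiquitin ligases, and its exon 3 of 19, 126 nt at chr1:92762961-92763086 on the minus strand, went from 0.986 and 1.00 to 0.844 and 0.787. TRIM5 is a RING ubiquitin ligase that restricts retroviruses, and its exon 6 of 8, 101 nt at chr11:5687211-5687311 on the minus strand, went from 0.982 and 0.954 to 0.782 and 0.826. None of these groups overlapped, which the definition required. The GLMN exon had 1 skipping read in the first control library and 0 in the second, against 14 and 17 after depletion.

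The remaining coding exons were in genes of the ribosome, endocytosis, metabolism and the cell surface. RPL7L1, a nucleolar relative of a ribosomal protein, had the most reads of the 13. Its exon 2 of 6, 106 nt at chr6:42848599-42848704 on the plus strand, went from 0.945 and 0.967 to 0.755 and 0.725. REPS1 works in endocytosis, and its exon 19 of 20, 106 nt at chr6:139228632-139228737 on the minus strand, went from 0.933 and 0.970 to 0.791 and 0.735. AOX1, aldehyde oxidase, was at 1.00 and 0.976 in control cells and at 0.841 and 0.819 after depletion in its exon 17 of 35, 170 nt at chr2:201485373-201485542 on the plus strand. LAYN, a hyaluronan receptor, was at 0.941 and 0.979 and then at 0.854 and 0.824 in its exon 3 of 7, 158 nt at chr11:111420343-111420500 on the plus strand. EPB41L3, a protein 4.1 of the membrane skeleton, was at 0.984 in both control libraries and at 0.888 and 0.816 after depletion in its exon 22 of 23, 117 nt at chr18:5394676-5394792 on the minus strand, which holds coding sequence and UTR. RPL7L1 has 12 annotated pseudogenes named after it and SRSF10 has 1, and inclusion reads also count reads within the exon, which such copies could share.

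A loss of 0.1 or more without overlap between the groups was seen in 116 members, of which 103 did not reach the FDR threshold. Their median read number was 78 per library, against 269 for the newly skipped exons. The control libraries chose the members, so the 116 stand beside a mirror count. In the mirror set, 82 of 19746 exons were lower by 0.1 or more in control cells without overlap. For scale, the 2 CHERP siRNA libraries differed from each other by 0.1 or more in 197 members. The control libraries could not differ by as much, because a mean above 0.95 does not allow it. At a loss of 0.05 or more, 31 members passed all 3 conditions, and at 0.2 or more, 3 did.

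The cytoplasmic libraries took no part in choosing the members, but they decided which of them could be tested. A member was matched where the cytoplasm table holds the same exon with the same flanking exon ends, which was so for 6952 of the 19769 members, 35.2%. No cytoplasmic event lacked skipping reads in all libraries. A matched member without one in either cytoplasmic control library could therefore only be lower after depletion. One without any in either cytoplasmic CHERP siRNA library could only be higher. Of these, 5915, 85.1%, were above 0.95 in the cytoplasmic control libraries as well. The matched members had a median of 93.0 reads per cytoplasmic library. The cytoplasmic differences were balanced over the members, with 3522 lower and 3404 higher after depletion and a median of -0.000421, beside a median of -0.000296 over all 31924 cytoplasmic events. 8 members passed an FDR of 0.05, all lower after depletion, which is 0.115% of the matched members beside 0.107% of all events in this direction. In the other direction 0 members passed, beside 0.147% of all events, while 55 had an unadjusted p under 0.05 in the same model and 275 by limma on log2 odds, of which limma called 0. In the lower direction the share of called members was near that of all events, and the 8 exons formed 5 stretches that did not overlap.

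All 12 of the 13 newly skipped exons that could be matched in the cytoplasm had a lower mean level there after depletion, and CLK1 could not be matched. RPL7L1, GLMN, TRIM5 and GLYR1 had no skipping read in either cytoplasmic control library, so their direction was fixed by being listed. In 9 of the 12 both CHERP siRNA libraries lay below both control libraries, which held for 10.3% of the matched members and for 12.2% of all cytoplasmic events. Of the 12, 7 had an unadjusted p under 0.05, and BRD8 alone passed the FDR threshold. The median difference was -0.184 in the cytoplasm beside -0.171 in whole cells for the same 12, and 7 of them had the larger loss in the cytoplasm. The effective length of the skipping form was 144 nt in whole cells and 73 nt in the cytoplasm. The sizes in the 2 fractions were thus not measured alike. No mean level of the 12 stayed above 0.95 after depletion in the cytoplasm, whereas 8 were above it in the cytoplasmic control libraries. The 12 exons had a median of 64.2 reads per cytoplasmic library, and 2 had under 20.

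**Figure D2:**
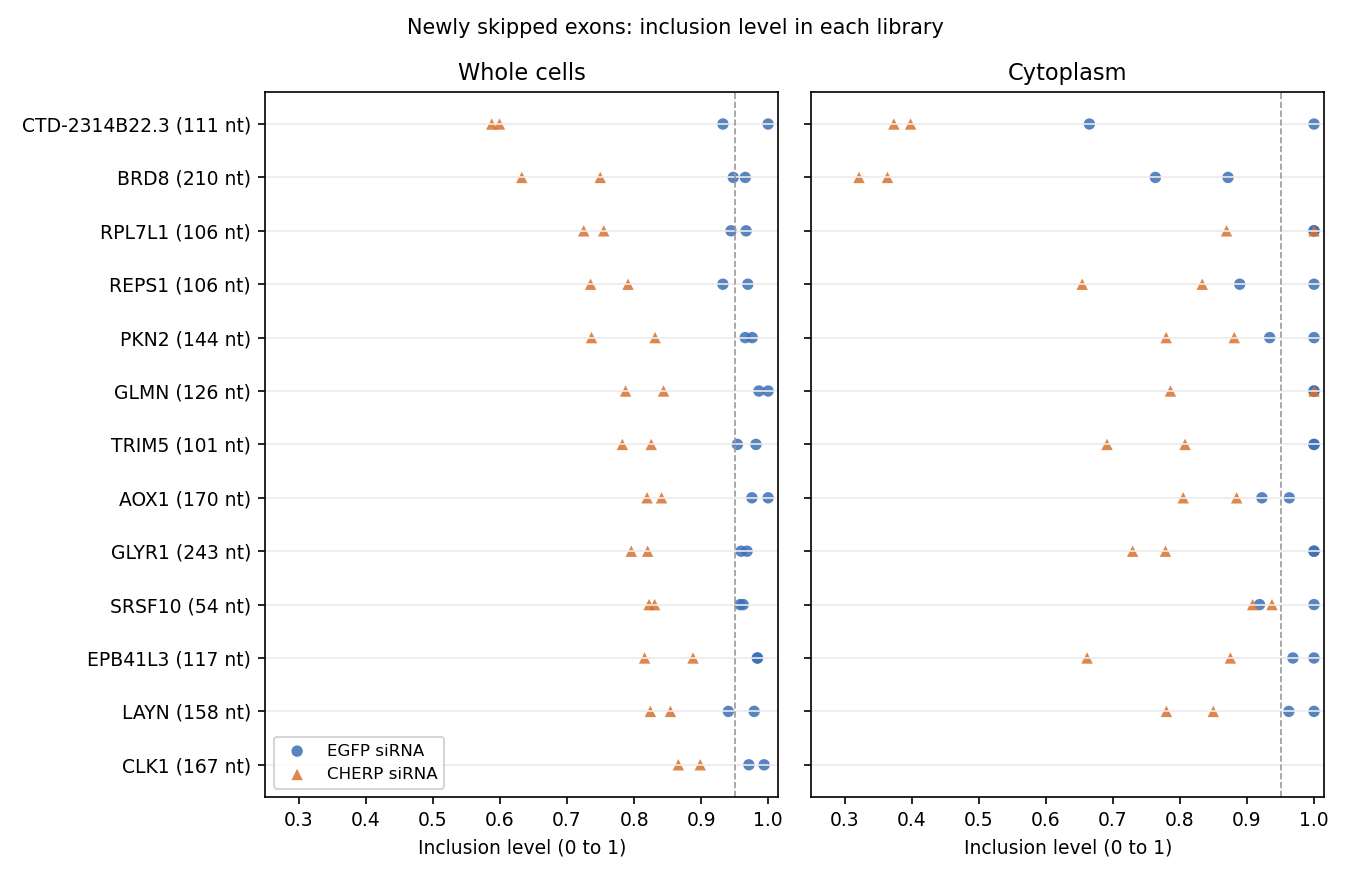
Inclusion level of the 13 newly skipped exons in each library (circles, EGFP siRNA; triangles, CHERP siRNA; 2 libraries each), in whole cells on the left and in the cytoplasm on the right, with the cutoff of 0.95 as a dashed line. In whole cells every triangle lies left of both circles of its exon, and in the cytoplasm this holds for 9 of the 12 exons matched.

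BRD8 showed the largest cytoplasmic loss of all 12. Its level was 0.763 and 0.872 in the cytoplasmic control libraries and 0.364 and 0.321 after depletion, a difference of -0.475 (FDR = 0.0299 by the quasi-binomial model over all events). The groups did not overlap, and the cytoplasmic control libraries already lay below 0.95. It rested on 6 and 3 skipping reads in control cells against 14 and 12, and the FDR was between 0.113 and 0.601 when any of the 4 libraries was left out.

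The other exons did not pass the threshold in the cytoplasm. LAYN was at 1.00 and 0.962 in control cells and at 0.780 and 0.850 after depletion (FDR = 0.186 by the same model). GLYR1 was at 1.00 in both control libraries and at 0.778 and 0.729 after depletion (FDR = 0.363). EPB41L3 was at 0.968 and 1.00 and then at 0.875 and 0.661 (FDR = 0.449). In each of these 3 the groups stood apart, with 0 to 2 skipping reads in the control libraries and 4 to 15 after depletion. REPS1, TRIM5, PKN2, AOX1 and CTD-2314B22.3 were also lower in both CHERP siRNA libraries than in either control library, at FDR = 0.762 each. In RPL7L1, GLMN and SRSF10 the groups overlapped. SRSF10 was at 0.919 and 1.00 in cytoplasmic control libraries and at 0.908 and 0.937 after depletion, and its mean difference of -0.0365 became 0.00411 without the second control library.

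The smaller whole-cell changes had the same direction in the cytoplasm in most cases. Of the 32 other exons called lower in whole cells, 29 were matched, of which 27 were lower and 2 higher in the cytoplasm and 20 had no overlap. The 2 higher were PRAME versions. Versions of RPLP0, PRAME, NPM1 and NAP1L1 that share skipping reads were counted apart. ERCC1, FAM208A and DDX5 had no skipping read in either cytoplasmic control library and could only be lower. Of the 14 called higher, 12 were matched and all 12 were higher, 8 of them without overlap. COX7A2 and SDCBP were counted in 2 versions each. HMGCS1, COX7A2, C11orf58 and ARF4 had none in either cytoplasmic CHERP siRNA library and could only be higher. Among all 6952 matched members, 716 were lower and 622 higher without overlap. Of the 103 with an uncalled loss, 76 were matched, of which 57 were lower and 17 higher, with a median of -0.0785 and 27.4 reads per library. Members whose whole-cell level was lower by 0.05 to 0.1 had a median cytoplasmic difference of -0.0332 (258 exons), those lower by 0.02 to 0.05 had -0.0164 (699 exons), those lower by less had -0.00156 (2695 exons), and those higher in whole cells had 0.00287 (3206 exons). The cytoplasmic medians thus followed the order of the whole-cell differences. They were smaller in size, but the levels of the fractions were taken over unlike effective lengths.

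**Figure D3:**
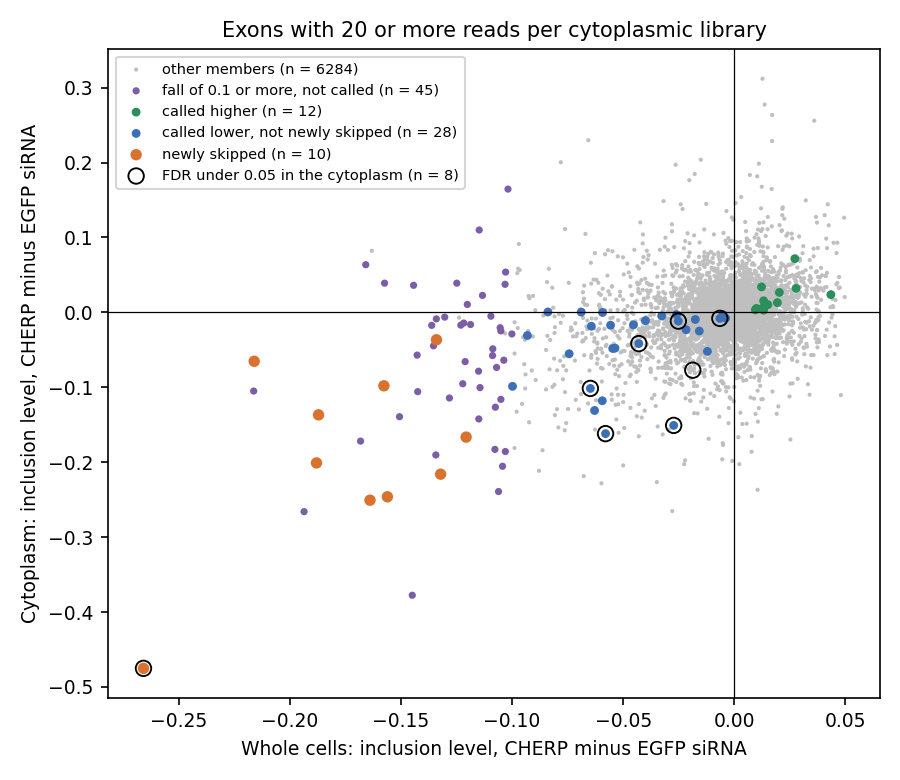
Difference in inclusion level, CHERP minus EGFP siRNA, in whole cells (horizontal axis) and in the cytoplasm (vertical axis) for the members with 20 or more reads per cytoplasmic library, 1 point per exon. The 10 newly skipped exons shown all lie below 0 on both axes, the 12 exons called higher in whole cells lie above 0 on both, and rings mark the 8 exons with an FDR under 0.05 in the cytoplasm.

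The 8 exons called in the cytoplasm belonged to 5 genes, BRD8, RPLP0, PTGES3, LGALS1 and NPM1. RPLP0 encodes a protein of the ribosomal stalk, and 3 versions of 1 exon were counted, of 217, 186 and 78 nt, which share their downstream end at 120636357 on chromosome 12 and differ in the 3′ splice site. The 3′ splice sites are printed to show the 3 alternative starts, with 20 intronic bases, whose final AG is in capitals, and 3 exonic bases.
RPLP0 217 nt: atctgctggttgtccaacAGgtg
RPLP0 186 nt: cccactattatctggttcAGagt
RPLP0 78 nt: ttgggctggtcatccagcAGgtg

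The whole stretch of the 186 nt version, chr12:120636351-120636562 on the minus strand in GRCh37, contains the start of the 78 nt version.
RPLP0: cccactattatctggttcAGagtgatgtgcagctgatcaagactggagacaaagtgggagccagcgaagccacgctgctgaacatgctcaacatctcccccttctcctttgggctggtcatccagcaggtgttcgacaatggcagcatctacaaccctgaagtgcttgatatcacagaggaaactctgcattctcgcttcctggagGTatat

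In the cytoplasm the 186 nt version was at 0.894 and 0.904 in control cells and at 0.758 and 0.739 after depletion, a difference of -0.151 (FDR = 1.61e-15 by the quasi-binomial model). The 217 nt version was lower by 0.162, from 0.882 and 0.894 to 0.736 and 0.716, and the 78 nt version by 0.101, from 0.935 and 0.942 to 0.844 and 0.830. All 3 rested on the same skipping reads, 70 and 62 in control cells against 198 and 188, so they are 1 observation and not 3. In whole cells the 186 nt version was at 0.982 in both control libraries and at 0.957 and 0.952 after depletion, a loss of 0.0273. In the first control library the 217, 186 and 78 nt versions had 8936, 18789 and 4729 inclusion reads in whole cells. In the cytoplasm they had 2086, 2085 and 2100. The levels of the fractions were therefore not measured alike and are not compared. RPLP0 has 12 annotated pseudogenes named after it.

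LGALS1, galectin-1, a lectin that binds galactosides, is itself on the mesenchymal marker list. Its exon 3 of 4, 172 nt at chr22:38074490-38074661 on the plus strand, had the most cytoplasmic reads of the called members, 11818.5 per library on average. Its level was 0.989 and 0.985 in cytoplasmic control libraries and 0.942 and 0.948 after depletion, a difference of -0.0417 (FDR = 1.21e-31 by the quasi-binomial model). Whole cells gave 0.991 and 0.984 and then 0.943 and 0.947. The groups stood apart in each fraction, with 33 and 45 cytoplasmic skipping reads in control cells against 270 and 197. Its sequence, chr22:38074470-38074667 on the plus strand, is shown as the best-read loss, with the same capitals as above.
LGALS1: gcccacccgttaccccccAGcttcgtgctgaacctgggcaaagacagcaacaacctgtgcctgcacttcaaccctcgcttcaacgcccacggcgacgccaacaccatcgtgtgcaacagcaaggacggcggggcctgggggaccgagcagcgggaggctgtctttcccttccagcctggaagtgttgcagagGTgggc

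NPM1 is a nucleolar chaperone, and 2 versions of its exon 2 were called, of 80 nt at chr5:170817055-170817134 and of 56 nt at chr5:170817079-170817134 on the plus strand. The 80 nt version was at 0.998 and 1.00 in cytoplasmic control libraries and at 0.9901 and 0.992 after depletion (FDR = 0.00177 by the quasi-binomial model). Both versions shared their skipping reads, 3 and 0 in control cells against 23 and 14, and NPM1 has 49 annotated pseudogenes named after it. Without the second control library the FDR of the 80 nt version was 0.795. PTGES3, a co-chaperone of HSP90, was at 0.941 and 0.923 in its 90 nt exon at chr12:57064059-57064148 on the minus strand and at 0.846 and 0.864 after depletion (FDR = 0.00828). It was the called member with no whole-cell call, at 0.962 and 0.952 in control whole cells and 0.938 and 0.939 after depletion, and 3 of the 4 left-out libraries raised its FDR to between 0.0866 and 0.520. The RPLP0 and LGALS1 calls remained with any 1 cytoplasmic library left out. By limma on log2 odds the 8 exons had adjusted p between 0.396 and 0.693, and 87 members were lower at an unadjusted p under 0.05 in the quasi-binomial model and 311 by limma. The count of 8 was 4 without the second cytoplasmic EGFP library and 5 without the first cytoplasmic CHERP library.

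**Figure D4:**
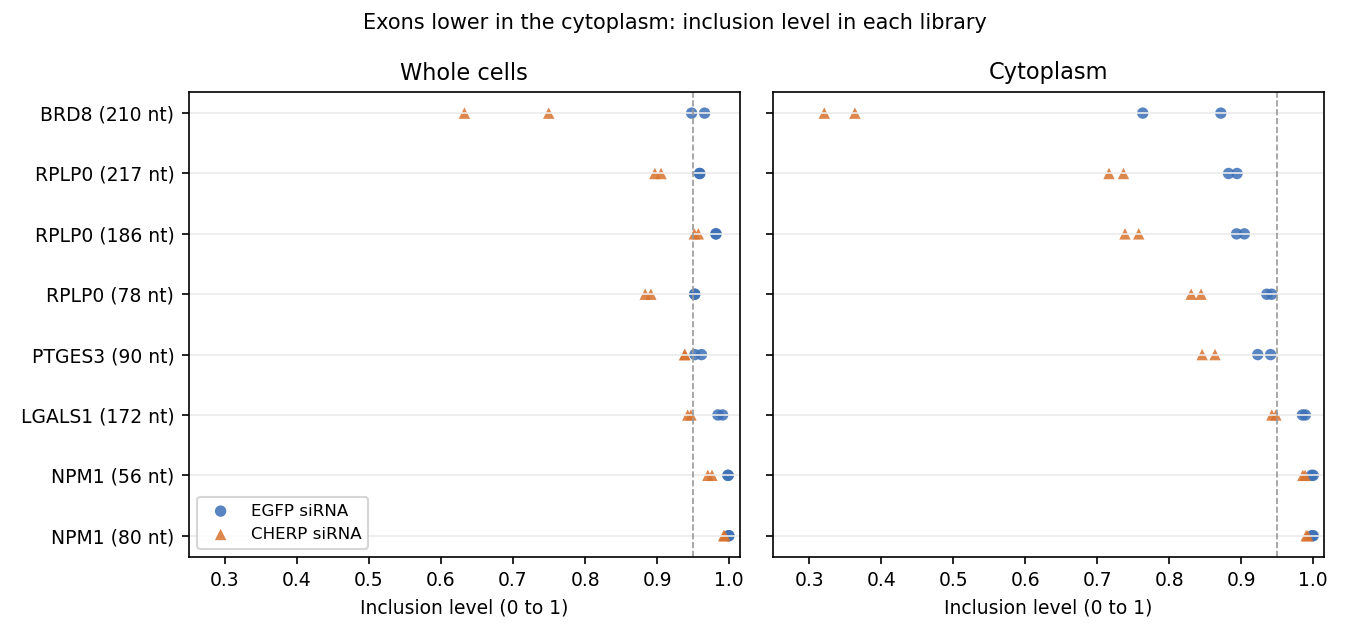
Inclusion level of the 8 members with an FDR under 0.05 in the cytoplasm, in each library (circles, EGFP siRNA; triangles, CHERP siRNA; 2 libraries each), in whole cells on the left and in the cytoplasm on the right, with 0.95 as a dashed line. The BRD8 exon stands apart by the size of its loss, and the 3 RPLP0 versions share their skipping reads.

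The position of the members in their genes was read from GENCODE 44 lifted to GRCh37. Most, 18151 or 91.8%, were wholly coding, and 93.8% belonged to the principal transcript of their gene. Among the 13 newly skipped exons 11 were wholly coding and 12 were in the principal transcript. Of the 11, 5 had a length divisible by 3 and could be skipped in frame, those of BRD8, PKN2, GLMN, GLYR1 and SRSF10, beside 40.9% of all coding members with such a length. In 4, RPL7L1, AOX1, LAYN and CLK1, skipping would bring a stop over 50 nt before the last junction, beside 49.2% of all coding members. In REPS1 and TRIM5 the stop would fall within 50 nt of the last junction or after it.

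Splice sites were scored by log2 odds, against equal base frequencies, of 20 intronic and 3 exonic bases at the 3′ splice site and 3 exonic and 6 intronic bases at the 5′ splice site, with base frequencies from 95806 introns beside cassette exons. The median score of the 3′ splice site was 9.22 for the newly skipped exons and 9.72 for all members, and that of the 5′ splice site was 8.42 against 8.21. Of the 13, 8 had a 3′ splice site and 6 a 5′ splice site below the median of all members. The scores were spread widely, from -0.162 in EPB41L3 to 16.6 in TRIM5 at the 3′ splice site, and from 5.43 in AOX1 to 10.6 in EPB41L3 at the 5′ splice site. The 2 extremes at the 3′ splice site and the site of GLMN, at 16.4, are printed for comparison, with AG in capitals.
EPB41L3: ctgtgatttcccggggatAGgcg
TRIM5: tttttttttttaattcttAGgac
GLMN: gttttttttttttttgccAGcaa

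The tract of TRIM5 and GLMN is nearly all T, whereas that of EPB41L3 is broken by purines. The 32 other exons called lower had a median 3′ splice site score of 7.87 and a 5′ splice site score of 7.82, and the 14 called higher had 8.90 and 8.20. The intron before the exon had a median length of 1067 nt for the newly skipped exons and 2265 nt for all members, and the intron after it 1274 nt against 2029 nt. The median GC content of the intron before the exon was 39.1% for the newly skipped exons, 47.4% for the 32 other exons called lower, 37.7% for the 14 called higher, and 40.9% for all members. Read depth differed as well between these sets, and among the 2202 members with 1000 or more reads per library the medians were 1556.5 nt before the exon, 41.4% GC and 9.72 at the 3′ splice site. Versions of an exon that share a splice site were counted apart in these medians. Among the 32 they were those of RPLP0, PRAME, NPM1 and NAP1L1, and among the 14 those of COX7A2 and SDCBP. These comparisons are descriptions over exons and were not tested.

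**Figure D5:**
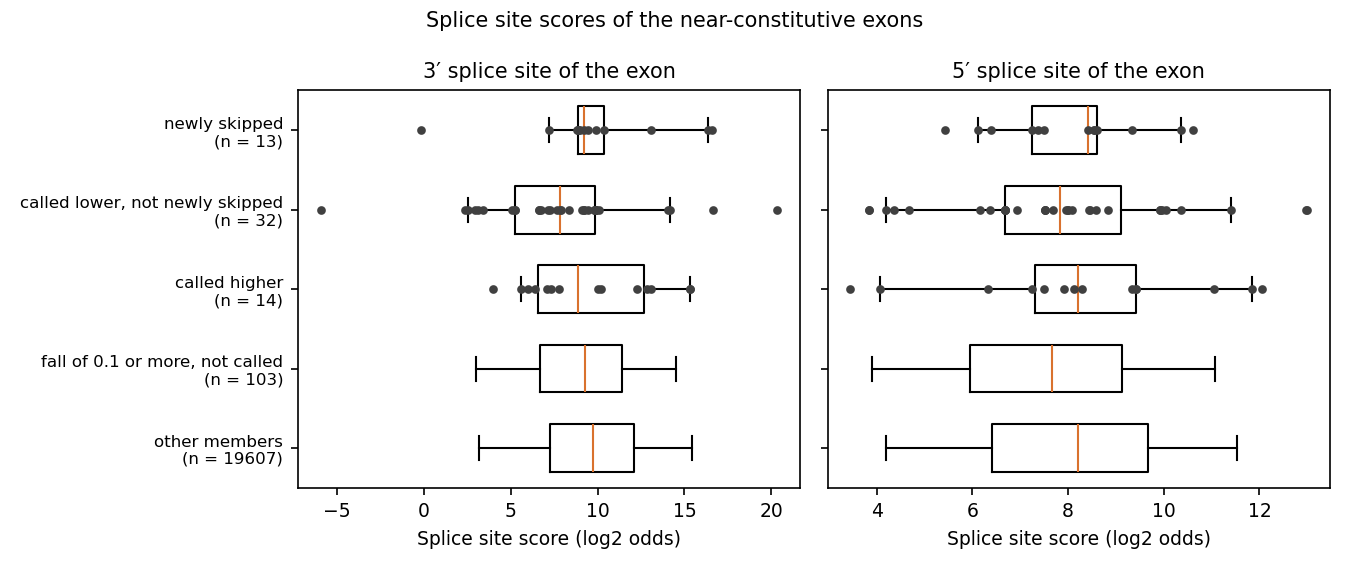
Splice site scores (log2 odds) of the near-constitutive exons by their whole-cell outcome, for the 3′ splice site on the left and the 5′ splice site on the right. Boxes give the quartiles and the median, whiskers the 5th and 95th percentiles, and points the single exons of the 3 called sets; the newly skipped exons have medians of 9.22 and 8.42 within the boxes of the other members.

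Gene lists that cover splicing, cell division and related functions were counted next. Of the 12 lists, 3 held an exon called lower in whole cells, beside 45 of all 19769 members, 0.228%, and 0.438% of all events. The SR and hnRNP list had 2 among 170 member exons, SRSF10 and CLK1, and 1 called higher in HNRNPA2B1, which binds RNA in the nucleus. The list of chromatin and transcription regulators had 1 among 267, BRD8, which was also the only exon of any list called in the cytoplasm. The study's own RT-PCR panel for exon skipping, chosen on these samples and therefore no independent evidence, had 1 among 39, a 69 nt exon of KTN1, an anchor of kinesin at the endoplasmic reticulum. This KTN1 exon was at 0.989 and 1.00 in control cells and at 0.902 and 0.948 after depletion, a loss of 0.0695 that was under the 0.1 required. The other 9 lists held 2144 member exons and 0 calls in the lower direction by the quasi-binomial model. Of these exons 41 were lower at an unadjusted p under 0.05 in that model and 111 by limma on log2 odds. Among all 19769 members the same counts were 383 and 890. In the 9 lists 7 exons were lower by 0.1 or more without overlap, beside 116 of all 19769 members, 0.587%. The 9 lists included U2 snRNP and branch point recognition proteins, with 92 member exons and a median difference of 0.000609. Mitosis and cytokinesis genes were another, with 393 member exons, a median of 0.00191 and 1 exon called higher, in the mitotic kinase gene CDK1. CDK1 and HNRNPA2B1 are named as the single exons behind these counts, after their values were seen.

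The abundance of the genes that hold the newly skipped exons was a separate readout, summed over the events of each gene per length. In bulk RNA, fewer cells that express a gene and less RNA per cell cannot be told apart. In the cytoplasm 12 of the 13 genes had enough reads for the test. RPL7L1 was lower after depletion, with a log2 difference, CHERP minus EGFP, of -1.17 (FDR = 1.35e-06 by limma). BRD8 was lower with -1.01, PKN2 with -0.76 (FDR = 0.0113) and SRSF10 with -0.41 (FDR = 0.0114). AOX1 was higher with 1.35 and EPB41L3 with 0.28 (FDR = 0.0158). The other 6 did not pass, so 4 were lower and 2 higher, beside 23.6% of all genes lower and 24.6% higher. In whole cells the same 4 genes were lower and the same 2 higher among 13 tested, beside 18.4% and 18.8% of all genes. The sum includes the reads on the skipped exons themselves. The genes whose exon loss would shift the frame early thus divided, with RPL7L1 lower, AOX1 higher, and LAYN and CLK1 without a call, at 0.27 (FDR = 0.0595) and -0.17 (FDR = 0.498).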

How the data were processed

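The 8 libraries were grouped by the fraction and siRNA in their labels. The authors aligned reads with STAR 2.5.2b to hg19, used GENCODE 19 and RSEM 1.2.25, and deposited rMATS tables of whole-number read counts on the target exon and its junctions, with the effective length of each form in nt. The rMATS version is not given in the sources used here. The counts of the 2 libraries of a group are joined in 1 cell, and "first" and "second" library in the text mean their order there. The tables also hold the authors' p-values, FDRs and inclusion level differences, and 20 columns of inclusion levels, none of which was used. A list of differentially expressed genes with fold changes and pooled means was not used.

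Inclusion levels were recomputed from the deposited counts. CHERP and EGFP siRNA were compared by a quasi-binomial model over all SE events of a table, with dispersions moderated by limma 3.58.1 in R 4.3.3 and Benjamini-Hochberg adjustment (FDR). The prior had infinite weight, so each event took the trend dispersion at its read number. Its own spread between libraries was not used. With the larger of trend and own dispersion the counts of 13 and 8 stayed, and cytoplasmic LGALS1 had FDR = 3.08e-24 by this model. The alternative was limma on log2 odds with 0.5 added to each form. The script was tested on simulated data. Gene abundance was tested with limma on log2 of reads over effective length, with a pseudocount of 0.01 and a mean of 20 or more reads per gene. With 2 libraries per group, an exact permutation test could not reach a p of 0.05. Exon positions and sequences came from GENCODE 44 lifted to GRCh37 and the GRCh37 genome. Python 3.11.15 and pandas 2.3.3 were used for the rest.

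The members and lists were chosen with earlier results of these data known. Named exons were the newly skipped exons, those called in the cytoplasm, the 3 nearest the cutoff on each side, and exons of the gene lists and the RT-PCR panel that were called. Other cutoffs, dispersions, scalings and left-out libraries were tried as alternatives, and 2 more, overlapping exons counted once and genes with an annotated pseudogene left out, were chosen after seeing the data.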

Additional observations from a re-analysis of the deposited data

How the results depend on the processing

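The number of near-constitutive exons was 13110 at an inclusion cutoff of 0.99. The 13 newly skipped exons became 27 at a cutoff of 0.9 and 1 at 0.99, 31 with a loss of 0.05 or more and 3 with 0.2 or more, and 0 by limma on log2 odds, where all 13 had an unadjusted p under 0.05. They numbered 6 when the exons were chosen on the first EGFP library and compared with the second, 3 in the reverse order, and 3 to 14 with 1 library left out. The 12 of them that were lower in the cytoplasm became 23 at a cutoff of 0.9, 1 at 0.99, 0 by limma and 3 to 13 with 1 library left out.

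The 8 members called lower in the cytoplasm became 2 at a cutoff of 0.99, 0 by limma, 4 to 7 with 1 library left out, and 23 with the dispersion taken from events with 10 or more reads of the rarer form, which also gave 3 called higher. With that dispersion GLYR1 (FDR = 0.0219), EPB41L3 (FDR = 0.0357) and LAYN (FDR = 0.00446) passed as well. The count of 8 was 6 where every event of the exon had to be called. Chosen after seeing the data, overlapping exons counted once gave 5 and genes with an annotated pseudogene left out gave 2. The cytoplasmic difference of SRSF10 ranged from -0.0772 to 0.00411 with 1 library left out, and the positive value came without the second EGFP library. The genes of newly skipped exons higher in the cytoplasm numbered 1 with scaling by the library total and 1 to 2 with 1 library left out. Of the single exons named, counted once per alternative that kept all libraries, 81 whole-cell values stayed on their side of the threshold and 19 lost the call, and in the cytoplasm 79 stayed, 8 lost the call and 3 gained it. With 1 library left out, 33 whole-cell values and 10 cytoplasmic values lost the call. The cause of these changes was not tested.

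No paired analysis was possible because the deposited tables join the libraries of a group in 1 cell without replicate numbers. The cytoplasmic test held 35.2% of the members at a median of 93.0 reads per library, and an exon without skipping reads in any library is not listed. All values compare 2 libraries per group, made with 1 CHERP siRNA in 1 cell line. Inclusion reads include those within the exon.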
